A study of Mus musculus with 9 samples.

Results

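The genes of cholesterol synthesis and of its control by SREBP were described here in cultured mouse myoblasts that overexpressed Pax7 or Pax3. The members were 28 listed symbols: 20 enzymes in the order of the pathway, 5 regulators and 3 genes of sterol transport or carbon supply. Each symbol was measured by the probe set that carried that symbol alone and had the highest mean over all arrays. Such a probe set was found for 26 of the 28 symbols, out of 19661 genes measured, and Acat2 and Idi1 were skipped. The symbols do not cover every step of the pathway.

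RNA came from 3 groups of Balb/c skeletal muscle myoblasts with 3 arrays each: cells overexpressing Pax7, cells overexpressing Pax3 and cells with an empty vector, called CTAP Control in the labels. Pax7 and Pax3 are closely related transcription factors with a paired domain, both known from muscle precursors. All groups grew in the same medium, Ham's F10 with 20% serum (FBS) and 4 ng/ml of the growth factor bFGF. The labels give neither the vector's promoter, nor whether a line was 1 clone, nor whether the 3 samples of a group were separate cultures, so the p-values cover no more than the differences among these samples, which may be technical.

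Cholesterol is built in the endoplasmic reticulum from acetyl-CoA through mevalonate, isoprenoid diphosphates, squalene and lanosterol. When sterols in that membrane are scarce, Scap escorts the SREBP proteins to the Golgi apparatus, where proteases release their transcription factor part, and this part switches on the genes of the pathway. When sterols are plentiful, Insig proteins hold Scap and SREBP back. Srebf2 encodes SREBP-2, which mainly drives cholesterol genes, and Srebf1 encodes SREBP-1, which mainly drives fatty acid genes. In mammalian promoters SREBP sites work together with neighbouring sites for NF-Y and Sp1.

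The promoters are shown because 17 members were lower in both Pax7 and Pax3 arrays than in control arrays and 4 were higher in both, as given further on. RefSeq windows of 250 bases before to 50 bases after a gene start (build GRCm38.p6) were at hand for 22 of the 26 members, 30 windows in all. None was at hand for Fdps, Fdft1, Sqle and Stard4, which were all lower in both comparisons. The first 4 sequences belong to members that were lower in both comparisons and the last 2 to members that were higher in both. Each is written 5′ to 3′ on the gene's strand, and capitals mark the motif letters searched on either strand. These were TCACNCCAC for a sterol response element, ATCACCNCA for a second form of it, CCAAT for NF-Y and GGGCGG for Sp1. The strings ATCACGTGA, an E-box-like SREBP site, and GTCACGC, a core bound by Pax paired domains, were also searched. The second form, ATCACCNCA, has the same length as the first and was added after the sequences were seen.
Hmgcs1, chr13:119690101-119690400, plus strand: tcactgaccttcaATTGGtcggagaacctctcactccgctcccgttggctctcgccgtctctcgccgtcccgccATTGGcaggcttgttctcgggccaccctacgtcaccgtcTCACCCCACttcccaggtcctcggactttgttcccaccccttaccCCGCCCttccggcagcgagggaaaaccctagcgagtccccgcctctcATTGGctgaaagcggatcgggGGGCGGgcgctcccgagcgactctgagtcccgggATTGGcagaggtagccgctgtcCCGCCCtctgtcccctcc
Cyp51, chr5:4104648-4104947, minus strand: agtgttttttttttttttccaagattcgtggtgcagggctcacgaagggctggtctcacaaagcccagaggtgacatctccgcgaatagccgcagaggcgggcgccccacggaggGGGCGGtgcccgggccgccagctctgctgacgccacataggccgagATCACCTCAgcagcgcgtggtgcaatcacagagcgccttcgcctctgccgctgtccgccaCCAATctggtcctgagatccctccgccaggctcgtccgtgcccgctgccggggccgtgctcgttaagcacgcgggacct
Insig1, chr5:28071162-28071461, plus strand: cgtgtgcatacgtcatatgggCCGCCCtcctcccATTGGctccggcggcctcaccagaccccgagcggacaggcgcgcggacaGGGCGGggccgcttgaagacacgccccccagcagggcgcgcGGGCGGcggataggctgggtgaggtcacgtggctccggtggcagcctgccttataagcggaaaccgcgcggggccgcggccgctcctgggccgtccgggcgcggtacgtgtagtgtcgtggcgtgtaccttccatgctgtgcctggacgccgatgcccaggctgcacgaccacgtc
Srebf2, chr15:82147019-82147318, plus strand: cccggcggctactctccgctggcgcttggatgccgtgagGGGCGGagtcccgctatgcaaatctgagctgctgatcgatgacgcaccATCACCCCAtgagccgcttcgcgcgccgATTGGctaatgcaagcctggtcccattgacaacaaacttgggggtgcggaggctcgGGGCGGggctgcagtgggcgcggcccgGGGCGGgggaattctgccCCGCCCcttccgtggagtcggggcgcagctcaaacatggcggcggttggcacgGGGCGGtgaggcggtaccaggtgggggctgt
Tm7sf2, chr19:6067801-6068100, minus strand: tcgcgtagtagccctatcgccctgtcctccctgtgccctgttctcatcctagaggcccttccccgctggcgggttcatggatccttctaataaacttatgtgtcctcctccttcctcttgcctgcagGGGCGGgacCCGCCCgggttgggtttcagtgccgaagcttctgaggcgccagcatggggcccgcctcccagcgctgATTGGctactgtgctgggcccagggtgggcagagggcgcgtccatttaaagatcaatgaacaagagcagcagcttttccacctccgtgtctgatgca
Ebp, chrX:8193463-8193762, minus strand: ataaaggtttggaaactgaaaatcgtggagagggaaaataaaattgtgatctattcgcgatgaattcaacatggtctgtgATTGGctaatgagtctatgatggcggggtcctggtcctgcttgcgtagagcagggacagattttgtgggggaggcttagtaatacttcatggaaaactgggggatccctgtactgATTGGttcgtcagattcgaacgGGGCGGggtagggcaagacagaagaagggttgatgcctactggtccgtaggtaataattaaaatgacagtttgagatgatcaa

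The letters of NF-Y and Sp1 were both common among the members. CCAAT stood in a window of 21 of 22 members (95.5%), against 42.3% of 17492 protein-coding genes with such windows. GGGCGG stood in 19 of 22 members (86.4%), against 49.2% of those genes. Counted by window, CCAAT stood in 22 of 30 (73.3%) and GGGCGG in 23 of 30 (76.7%), against 37.4% and 35.7% of all 32851 windows. Of the members lower in both comparisons, 13 had a window, and CCAAT stood in 13 of them and GGGCGG in 11. Of the 4 members higher in both, 3 held CCAAT (not Scap) and 4 held GGGCGG. The shares include members that did not pass in either comparison: Mvk and Insig2 held both strings, Acly held both, and Npc1l1 held CCAAT.

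Sterol element letters were rarer. Among the 22 members with a window, TCACNCCAC was found in Hmgcs1 alone, at positions -137 to -129 from its start. It was found in 1.41% of the coding genes. ATCACCNCA was found in Cyp51 (-89 to -81) and Srebf2 (-163 to -155), and in 0.760% of the coding genes. That string was added with the members' sequences in view, so the comparison is not an even one. ATCACGTGA and GTCACGC were each found in 0 of the 22 members, against 0.475% and 3.08% of the coding genes. No match overlapped another in the members' windows. Matches describe letters in short windows and say nothing of binding.

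**Figure D1:**
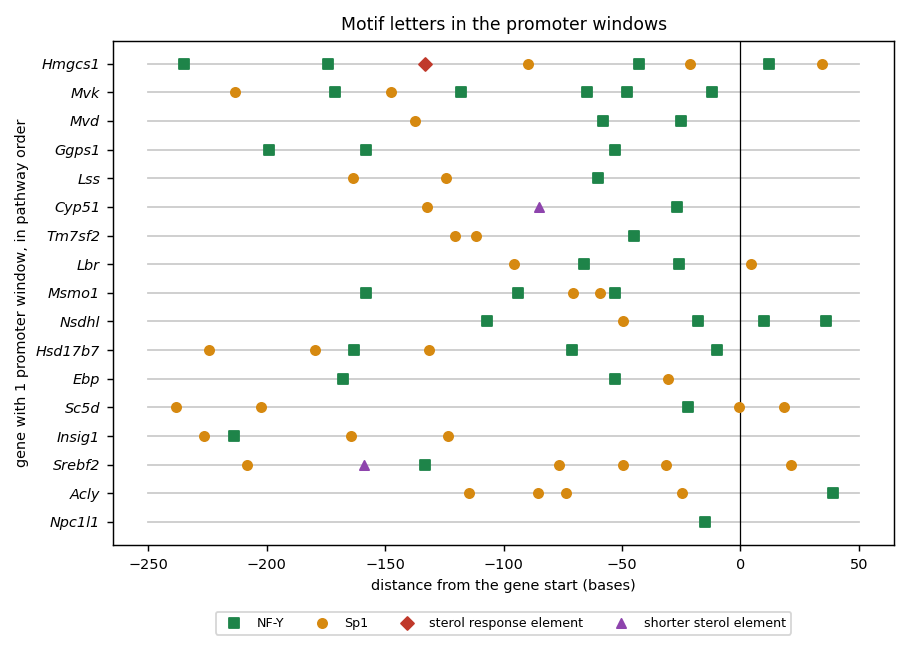
Positions of motif letters in the 17 members with 1 promoter window. Squares stand for NF-Y, circles for Sp1 and a diamond for the sterol response element. Triangles stand for its second form, of equal length, keyed as shorter sterol element. The horizontal axis is the distance from the gene start in bases and each row is a gene in pathway order. NF-Y squares appear in every one of these 17 rows, and the 3 sterol element symbols lie in the rows of Hmgcs1, Cyp51 and Srebf2.

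The values are log2 intensities, so a difference of 1 is a doubling. Array medians lay between 6.397 and 6.477, and within a group any 2 arrays had r between 0.997 and 0.999 over the probe sets. Pax7 stood at 12.28 ± 0.030 in Pax7 arrays, 8.18 ± 0.065 in Pax3 arrays and 10.51 ± 0.081 in control arrays (SD, n = 3 each). Pax3 stood at 6.82 ± 0.039 in Pax7 arrays, 11.05 ± 0.046 in Pax3 arrays and 5.83 ± 0.071 in control arrays. Each factor was highest in the arrays of its own group, and Pax7 was lower in Pax3 arrays than in control arrays. Myoblast markers differed between the groups. Of 8, 5 were lower and 1 higher in Pax7 arrays, and 4 were lower and 1 higher in Pax3 arrays (limma adjusted p under 0.05). Over all genes 21.5% were lower and 21.6% higher in Pax7 arrays, and 19.7% and 19.8% in Pax3 arrays. Myod1 stood at 12.18 ± 0.022, 12.50 ± 0.060 and 12.62 ± 0.023 in Pax7, Pax3 and control arrays, Des fell by 1.33 and 0.52 log2 units in Pax7 and Pax3 arrays, and Myf5 rose 4.05-fold and 3.92-fold. Their summed level was 14.17 to 14.19 in Pax7 arrays, 14.47 to 14.5 in Pax3 arrays and 14.6 to 14.63 in control arrays on the log2 scale.

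Other differences between the groups run along with every comparison against control below. The summed level of 8 differentiated muscle markers ranged from 11.93 to 12.18 on the log2 scale in Pax7 arrays, 13.01 to 13.05 in Pax3 arrays and 14.31 to 14.44 in control arrays, and 8 of 8 were lower in both. Xist, the RNA of the inactive X chromosome, stood at 11.72 ± 0.033 in Pax7 arrays, 11.96 ± 0.071 in Pax3 arrays and 4.77 ± 0.126 in control arrays, and the Y-linked Eif2s3y at 3.08 ± 0.014, 3.12 ± 0.019 and 8.78 ± 0.040. The sum of 6 measured markers of dividing cells differed little (13.22 to 13.28, 13.29 to 13.38 and 13.35 to 13.36). Of these 6, 0 were higher and 2 lower in Pax7 arrays, and 1 was higher and 1 lower in Pax3 arrays. Mki67 was lower in both, by log2 fold changes of -0.45 and -0.33. Some markers of other cell types were higher too. Their counts stand beside 21.6% of all genes higher and 21.5% lower in Pax7 arrays, and 19.8% and 19.7% in Pax3 arrays. Of 8 adipocyte markers, 4 were higher and 1 lower in Pax7 arrays and 3 were higher and 1 lower in Pax3 arrays, and their sum was 10.81 to 10.86, 10.78 to 10.81 and 10.1 to 10.14 in Pax7, Pax3 and control arrays. Pparg, which rose furthest of these in Pax7 arrays, stood at 10.09, 9.89 and 8.76. The marker that was lower was Cebpa, with log2 fold changes of -1.052 in Pax7 arrays and -1.175 in Pax3 arrays. Fabp4 did not pass in either comparison against control. Adipoq, which defines mature fat cells, was dim at 4.63, 4.52 and 4.42, though called higher in Pax7 arrays (0.21, limma adjusted p = 0.0182). Of the adipocyte markers Cd36 rose furthest in Pax3 arrays, and it did not pass in Pax7 arrays. It stood at 3.66, 4.95 and 3.76 in Pax7, Pax3 and control arrays. Of 8 macrophage markers 1 was higher with either factor, a smaller share than over all genes. This was Cd68 at 9.40, 8.72 and 7.36 in Pax7, Pax3 and control arrays, while Ptprc, which defines leukocytes, was dim at 4.73, 4.74 and 4.70. The macrophage sum was 9.779 to 9.839, 9.313 to 9.354 and 8.492 to 8.662. Of 8 epithelial markers 4 were higher with either factor, led by Krt18 at 8.87, 7.08 and 6.42, while Cdh1, which defines epithelium, was dim at 5.38, 5.35 and 5.35. The epithelial sum was 9.93 to 10.05, 9.241 to 9.3 and 9.014 to 9.142. Of 8 endothelial markers, 3 were higher and 0 lower in Pax7 arrays and 2 were higher and 0 lower in Pax3 arrays. Of 8 fibroblast markers, 2 were higher and 1 lower with either factor. The lower one was Postn, with log2 fold changes of -3.58 in Pax7 arrays and -2.58 in Pax3 arrays. The part of these differences in the results was not tested. The difference in Xist and Eif2s3y set every array with a factor apart from every control array. It therefore cannot be told apart from the factors in any comparison against control. In bulk RNA, fewer cells of a kind and less RNA per cell cannot be told apart.

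Most of the cholesterol pathway was lower in myoblasts with either factor. Against control, 18 of 26 members were lower in Pax7 arrays, 4 were higher and 4 did not pass (the threshold is a limma adjusted p under 0.05 over all genes), against 21.5% of all genes lower and 21.6% higher. In Pax3 arrays 17 were lower, 4 were higher and 5 did not pass, against 19.7% of all genes lower and 19.8% higher. The falls ran from the synthase Hmgcs1 at the head of the route to the reductase Dhcr7 at its end. The 4 genes that rose in both, Tm7sf2, Nsdhl, Ebp and Scap, were 3 late sterol enzymes and the SREBP escort.

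The sizes were moderate. The median log2 fold change over the 26 members was -0.37 in Pax7 arrays and -0.43 in Pax3 arrays, against 0.03 and 0.02 over all genes. In Pax7 arrays 3 members fell by 1 log2 unit or more (Cyp51, Insig1 and Hmgcs1), and in Pax3 arrays 5 did so (those 3, Stard4 and Sqle). Against a minimum fold change of 1.2 (limma treat), 11 members were lower and 3 higher in Pax7 arrays, and 13 lower and 1 higher in Pax3 arrays.

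For most members the arrays with a factor did not overlap the control arrays. With Pax7 this held in 25 of 26 members, against 55.5% of all genes. With Pax3 it held in 23 of 26, against 45.1% of all genes. The gap could be small, and the Pax7 count includes Mvk, Insig2 and Acly, which did not pass. The Pax3 count likewise includes Mvk and Acly, which did not pass in that comparison. For Insig2 the lowest Pax7 array stood at 9.621 and the highest control array at 9.616. Over all 26 members, the median distance to the control mean was -0.40 to -0.33 on single Pax7 arrays and -0.43 to -0.38 on single Pax3 arrays. Both comparisons use the same control arrays, so the members' shared directions are not independent of each other.

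**Figure D2:**
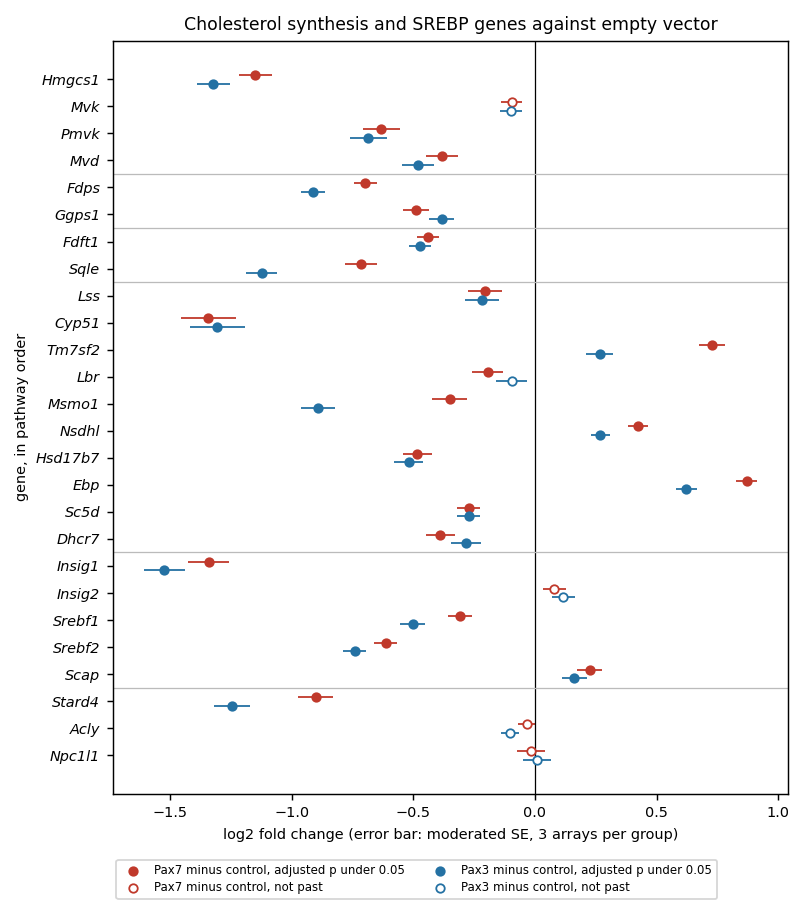
Log2 fold change of the 26 members (rows, in pathway order; grey lines part the stages) in Pax7 arrays (red) and Pax3 arrays (blue) against control arrays; bars are moderated standard errors, filled points have a limma adjusted p under 0.05 and open points do not. Points lie left of 0 for most enzymes, furthest for Cyp51, Insig1 and Hmgcs1, and right of 0 for Tm7sf2, Nsdhl, Ebp and Scap.

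Of the measured mevalonate steps, all but Mvk were called lower. Hmgcs1, which joins acetyl units into HMG-CoA, had 8.73, 8.73 and 8.61 in Pax7 arrays, 8.50, 8.67 and 8.38 in Pax3 arrays, and 9.82, 9.86 and 9.85 in control arrays. Every array with a factor lay more than 1 log2 unit below every control array. The fall was 2.22-fold in Pax7 arrays (log2 fold change -1.15 ± 0.068, SE, limma adjusted p = 1.08e-07) and 2.50-fold in Pax3 arrays (-1.32 ± 0.068, adjusted p = 4.81e-08).

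Mvk, the kinase that first phosphorylates mevalonate, did not pass in either comparison (-0.10 ± 0.044 in both, limma adjusted p = 0.108 for Pax7 and 0.107 for Pax3). Its Pax7 value passed when Pax3 replicate 3 or all Pax3 arrays were left out of the fit (adjusted p = 0.0472 and 0.0432). Pmvk, which adds the next phosphate, had 6.47, 6.48 and 6.58 in Pax7 arrays, 6.31, 6.49 and 6.58 in Pax3 arrays, and 7.07, 7.09 and 7.28 in control arrays. Its change was -0.63 ± 0.076 in Pax7 arrays and -0.69 ± 0.076 in Pax3 arrays (limma adjusted p = 3.9e-05 and 2.48e-05). Mvd, the decarboxylase that makes isopentenyl diphosphate, fell by less, with -0.38 ± 0.066 in Pax7 arrays and -0.48 ± 0.066 in Pax3 arrays. The arrays with a factor all lay below the control arrays for Mvk too. The kinase Mvk thus sat between steps with larger falls that passed.

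Both measured isoprenoid synthases fell. Fdps, which builds farnesyl diphosphate at the branch point to sterols, had 9.24, 9.21 and 9.19 in Pax7 arrays, 8.93, 9.09 and 8.98 in Pax3 arrays, and 9.89, 9.96 and 9.89 in control arrays. The 3 groups did not overlap, with control arrays highest and Pax3 arrays lowest. Its fall was 1.62-fold in Pax7 arrays and 1.88-fold in Pax3 arrays (limma adjusted p = 4.21e-07 and 6.35e-08). Ggps1, which makes geranylgeranyl diphosphate for protein prenylation on a side branch, changed by -0.49 ± 0.052 in Pax7 arrays and -0.38 ± 0.052 in Pax3 arrays.

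The squalene steps fell too. Fdft1, squalene synthase and the entry to the sterol branch, changed by -0.44 ± 0.045 in Pax7 arrays and -0.47 ± 0.045 in Pax3 arrays (limma adjusted p = 9.9e-06 and 6.67e-06). Sqle, squalene epoxidase and a rate-controlling step, had 8.90, 8.94 and 8.94 in Pax7 arrays, 8.51, 8.67 and 8.38 in Pax3 arrays, and 9.67, 9.63 and 9.64 in control arrays. All Pax3 arrays lay below all Pax7 arrays, and both below all control arrays. Sqle fell 1.64-fold in Pax7 arrays and 2.18-fold in Pax3 arrays (limma adjusted p = 3.72e-06 and 1.21e-07).

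The sterol ring steps did not move as 1 block. Of the 10 measured enzymes from lanosterol on, 7 were lower and 3 higher in Pax7 arrays, and 6 were lower, 3 higher and 1 not past in Pax3 arrays. The shares over all genes were 21.5% lower and 21.6% higher in Pax7 arrays, and 19.7% and 19.8% in Pax3 arrays. Lss, which closes the ring to lanosterol, changed little (-0.21 ± 0.070 in Pax7 arrays and -0.22 ± 0.070 in Pax3 arrays, limma adjusted p = 0.0338 and 0.0281). Its call ended without any 1 control array (adjusted p of 0.0568 to 0.116 for Pax7 and 0.0505 to 0.101 for Pax3), its Pax7 call also without any 1 Pax7 array, and its Pax3 call when Pax7 arrays were left out of the fit (0.0697).

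Cyp51, which removes a methyl group from lanosterol, fell furthest of the enzymes in Pax7 arrays and, after Hmgcs1, next furthest in Pax3 arrays. It had 7.09, 7.37 and 7.09 in Pax7 arrays, 7.31, 7.41 and 6.94 in Pax3 arrays, and 8.54, 8.50 and 8.54 in control arrays. The Pax7 and Pax3 arrays overlapped each other and lay at least 1 log2 unit below the control arrays. The fall was 2.54-fold in Pax7 arrays (-1.34 ± 0.114, limma adjusted p = 2.2e-06) and 2.47-fold in Pax3 arrays (-1.31 ± 0.114, adjusted p = 3.5e-06).

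The step after Cyp51 can be made by either of a pair of sterol reductases, and these did not move together. Tm7sf2, a reductase of the endoplasmic reticulum, had 7.91, 7.93 and 7.77 in Pax7 arrays, 7.32, 7.44 and 7.45 in Pax3 arrays, and 7.15, 7.11 and 7.15 in control arrays. The groups did not overlap, and Pax7 arrays were highest. Tm7sf2 rose by 0.73 ± 0.055 in Pax7 arrays, or 1.66-fold, and by 0.27 ± 0.055 in Pax3 arrays (limma adjusted p = 7.96e-07 and 0.00232). Lbr, a reductase that also anchors the nuclear lamina, fell in Pax7 arrays (-0.19 ± 0.063, limma adjusted p = 0.0281) and did not pass in Pax3 arrays (-0.10 ± 0.063, adjusted p = 0.284). The Lbr call in Pax7 arrays ended without control replicate 1 or 3 or Pax7 replicate 1 or 2 (adjusted p of 0.0724 to 0.106).

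The 3 enzymes that strip the ring's remaining methyl groups also split. Msmo1, the oxidase of that set, had 9.19, 9.15 and 9.11 in Pax7 arrays, 8.58, 8.78 and 8.48 in Pax3 arrays, and 9.58, 9.48 and 9.45 in control arrays. Its fall in Pax3 arrays (-0.89 ± 0.071, limma adjusted p = 1.72e-06) stood beside one of -0.35 ± 0.071 in Pax7 arrays (adjusted p = 0.00188). Hsd17b7, the reductase that ends the set, changed by -0.48 ± 0.059 in Pax7 arrays and -0.52 ± 0.059 in Pax3 arrays. Nsdhl, the decarboxylase between them, went the other way, with 10.17, 10.15 and 10.15 in Pax7 arrays, 9.96, 10.03 and 10.02 in Pax3 arrays, and 9.78, 9.72 and 9.71 in control arrays. It rose by 0.42 ± 0.040 in Pax7 arrays and 0.27 ± 0.040 in Pax3 arrays (limma adjusted p = 5.97e-06 and 0.000251).

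Ebp, the isomerase that shifts a double bond of the ring, rose furthest. It had 9.23, 9.26 and 9.24 in Pax7 arrays, 8.95, 9.04 and 8.99 in Pax3 arrays, and 8.43, 8.32 and 8.37 in control arrays. The 3 groups were apart, with Pax7 arrays highest and control arrays lowest. The rise was 1.83-fold in Pax7 arrays and 1.54-fold in Pax3 arrays (limma adjusted p = 2.71e-08 and 6.04e-07). Sc5d and Dhcr7, a desaturase and a reductase near the end of the route, fell, by 0.27 ± 0.047 and 0.39 ± 0.060 in Pax7 arrays and by 0.27 ± 0.047 and 0.28 ± 0.060 in Pax3 arrays (limma adjusted p of at most 0.00282).

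Nsdhl and Ebp are the 2 members on the X chromosome, and both rose in the groups with high Xist. Of 712 X-linked genes tested, 21.1% were higher and 17% lower in Pax7 arrays, against 21.7% and 21.7% of genes on other chromosomes. In Pax3 arrays 21.6% of X-linked genes were higher and 15% lower, against 19.8% and 19.9% of the others. The sex-linked difference cannot be told apart from the factors in these groups, and its part in the values of Nsdhl and Ebp was not tested.

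**Figure D3:**
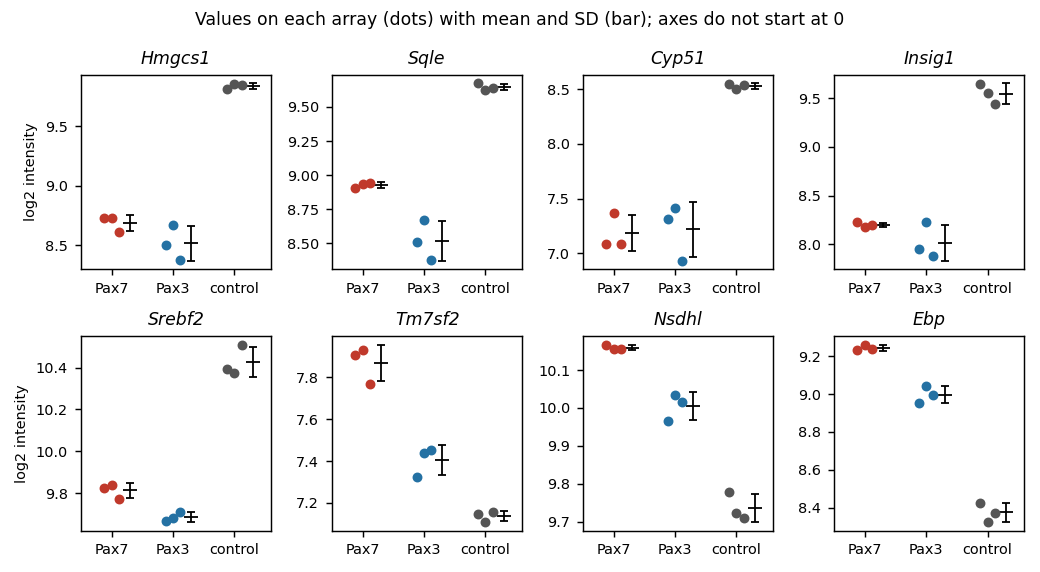
Log2 intensity on each array (dots) for 8 members in Pax7, Pax3 and control arrays, with mean and SD (bars); the vertical axes differ between panels and do not start at 0. Control dots lie above all others for Hmgcs1, Sqle, Cyp51, Insig1 and Srebf2, and below all others for Tm7sf2, Nsdhl and Ebp.

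Among the regulators, the feedback gene Insig1 fell as far as Cyp51 in Pax7 arrays and furthest of all members in Pax3 arrays. Insig1, which holds Scap in the endoplasmic reticulum and is itself switched on by SREBP, had 8.23, 8.18 and 8.19 in Pax7 arrays, 7.95, 8.23 and 7.88 in Pax3 arrays, and 9.65, 9.55 and 9.43 in control arrays. Pax7 and Pax3 arrays overlapped, and control arrays stood over 1 log2 unit higher. The fall was 2.54-fold in Pax7 arrays (-1.34 ± 0.085, limma adjusted p = 1.89e-07) and 2.88-fold in Pax3 arrays (-1.53 ± 0.085, adjusted p = 9.06e-08). Its paralog Insig2, which also retains Scap, did not pass (0.08 ± 0.049 in Pax7 arrays and 0.12 ± 0.049 in Pax3 arrays, limma adjusted p = 0.223 and 0.0848). The Insig2 value in Pax3 arrays passed without Pax3 replicate 1 (adjusted p = 0.0247) or without the dimmer 50% of genes (0.0438).

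Both SREBP genes were lower. Srebf2 had 9.83, 9.84 and 9.77 in Pax7 arrays, 9.66, 9.68 and 9.71 in Pax3 arrays, and 10.39, 10.38 and 10.51 in control arrays. The factor arrays lay at least 0.5 log2 units under the control arrays. The fall was 1.53-fold in Pax7 arrays and 1.67-fold in Pax3 arrays (limma adjusted p = 9.27e-07 and 2.67e-07). Srebf1 had 8.58 on each Pax7 array, 8.31, 8.42 and 8.43 in Pax3 arrays, and 8.91, 8.80 and 8.95 in control arrays. It changed by -0.31 ± 0.051 in Pax7 arrays and -0.50 ± 0.051 in Pax3 arrays (limma adjusted p = 0.000459 and 1.22e-05). Its SD in Pax7 arrays was 0.000377, and equal values on different arrays occurred in 45.4% of probe sets of the deposited table. SREBP-1 isoforms were not told apart, and transcript levels do not show how much SREBP was cleaved.

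Scap moved against its partners, and slightly. It had 10.36, 10.40 and 10.38 in Pax7 arrays, 10.28, 10.33 and 10.34 in Pax3 arrays, and 10.10, 10.10 and 10.26 in control arrays. Control replicate 3 lay close to the lowest Pax3 array. The rise was 0.22 ± 0.050 in Pax7 arrays and 0.16 ± 0.050 in Pax3 arrays (limma adjusted p = 0.00342 and 0.0233). The Pax3 call ended without control replicate 1 or 2 or Pax3 replicate 2 or 3 or all Pax7 arrays (adjusted p of 0.0519 to 0.093).

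The last 3 members parted from one another. Stard4, a sterol carrier between membranes that SREBP-2 switches on, had 6.85, 6.70 and 6.67 in Pax7 arrays, 6.25, 6.42 and 6.51 in Pax3 arrays, and 7.58, 7.63 and 7.71 in control arrays. No groups overlapped, with Pax3 arrays lowest. It fell 1.87-fold in Pax7 arrays and 2.37-fold in Pax3 arrays (limma adjusted p = 1.49e-06 and 1.41e-07). Acly, which makes cytosolic acetyl-CoA from citrate, did not pass (-0.03 ± 0.038 in Pax7 arrays and -0.10 ± 0.038 in Pax3 arrays, limma adjusted p = 0.522 and 0.0537). The Acly value in Pax3 arrays passed without Pax3 replicate 2 and under 3 other settings (adjusted p of 0.0248 to 0.0455). Npc1l1, the intestinal cholesterol transporter, was dim at 6.11 ± 0.039 in Pax7 arrays, 6.13 ± 0.119 in Pax3 arrays and 6.12 ± 0.024 in control arrays.

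Where the factors differed, the cholesterol genes were less low, or higher, with Pax7. Between Pax7 and Pax3 arrays 8 of 26 members were higher in Pax7 arrays and 0 were lower (limma adjusted p under 0.05), against 8.33% of all genes higher and 8.54% lower. At an unadjusted p under 0.05, 10 were higher and 0 lower. In 11 of 26 members the arrays did not overlap, all 11 higher with Pax7, against 29.4% of all genes apart in either direction. The median difference over the members was 0.07 log2 units, against 0.01 over all genes, and against a minimum fold change of 1.2 (limma treat) Msmo1 alone was called.

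Of these 8 members, 5 were lower than control with either factor and 3 were higher than control with either. In the first set, Msmo1 differed most, by 0.54 ± 0.071 (limma adjusted p = 0.000327), ahead of Sqle (0.41 ± 0.065, adjusted p = 0.00121), Stard4 (0.34 ± 0.073, adjusted p = 0.00754), Fdps (0.22 ± 0.049, adjusted p = 0.0107) and Srebf1 (0.19 ± 0.051, adjusted p = 0.0246). These genes thus fell further with Pax3 than with Pax7. In the second set, Tm7sf2 differed by 0.46 ± 0.055 (limma adjusted p = 0.00015), Ebp by 0.25 ± 0.044 (adjusted p = 0.00242) and Nsdhl by 0.15 ± 0.040 (adjusted p = 0.0237), all higher with Pax7. The calls of Srebf1 and Nsdhl ended without Pax3 replicate 1 or any 1 Pax7 array (adjusted p of 0.0723 to 0.0946 and 0.0683 to 0.0839), and that of Nsdhl also with arrays centred on their medians (0.0572).

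Other lowered genes showed no called difference between the factors. Cyp51 differed by -0.04 ± 0.114 between Pax7 and Pax3 arrays (limma adjusted p = 0.888), a wide error. Sc5d differed by less than 0.01 (SE 0.047), Fdft1 by 0.03 ± 0.045 and Hsd17b7 by 0.04 ± 0.059. Insig1 differed by 0.18 ± 0.085 and Hmgcs1 by 0.17 ± 0.068 (limma adjusted p = 0.198 and 0.127). Both passed without Pax3 replicate 2 (0.29 with limma adjusted p = 0.0137, and 0.25 with adjusted p = 0.0149), and Hmgcs1 after a repeated quantile normalisation (0.0407). Srebf2, which differed by 0.13 ± 0.047 (limma adjusted p = 0.101), passed without the dimmer 50% of genes (0.0495). On Pax3 replicate 2, 22 of 26 members lay above their Pax3 group mean, and on Pax3 replicate 1 below it lay 20. The members' SD within a group had a median of 0.0361 in Pax7 arrays, 0.0759 in Pax3 arrays and 0.0479 in control arrays.

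**Figure D4:**
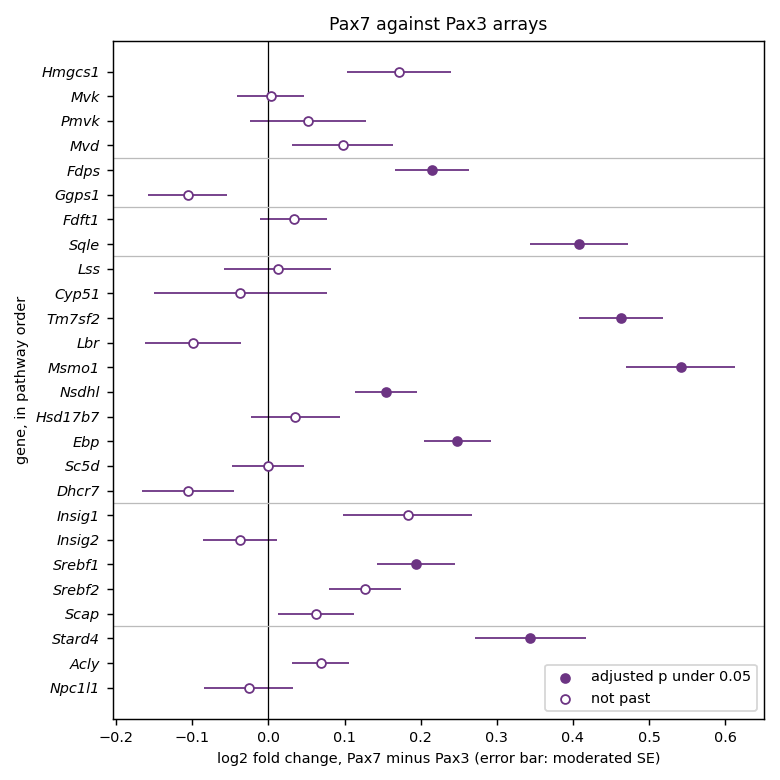
Log2 fold change of the 26 members (rows, in pathway order) in Pax7 arrays over Pax3 arrays, with moderated standard errors; filled points have a limma adjusted p under 0.05. The 8 filled points all lie right of 0, led by Msmo1, Tm7sf2 and Sqle.

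Other lipid lists are given with their counts, to be read against the 21.6% higher and 21.5% lower of all genes in Pax7 arrays and the 19.8% higher and 19.7% lower in Pax3 arrays. Genes that use isoprenoids for prenylation, ubiquinone or dolichol gave 7 higher, 3 lower and 5 not past of 15 measured in Pax7 arrays, and 6, 3 and 6 in Pax3 arrays. Pdss2, which makes the ubiquinone side chain, rose by 0.79 ± 0.053 in Pax7 arrays and 0.64 ± 0.053 in Pax3 arrays. Srd5a3 (0.58 and 0.61) and Nus1 (0.49 and 0.36), both needed for dolichol, rose in Pax7 and Pax3 arrays, and the dolichol kinase Dolk fell (-0.44 and -0.33). The list medians were 0.01 in Pax7 arrays and 0.03 in Pax3 arrays.

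The machinery that cuts, carries or degrades SREBP and its partners gave 3 higher and 5 lower of 11 in Pax7 arrays, and 3 and 3 in Pax3 arrays, where 21.6% and 21.5% of all genes passed with Pax7 and 19.8% and 19.7% with Pax3. Paqr3, a Golgi protein that binds Scap, was 2.02-fold higher in Pax7 arrays and 2.18-fold higher in Pax3 arrays (limma adjusted p = 8.23e-09 and 5.74e-09). Erlin1 (0.82 and 0.90) and Erlin2 (0.71 and 0.45), partners in degradation at the endoplasmic reticulum, also rose in Pax7 and Pax3 arrays. Sec23a, a coat subunit of the vesicles that leave that compartment, fell by 0.50 ± 0.047 in Pax7 arrays and 0.47 ± 0.047 in Pax3 arrays.

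Fatty acid genes were split evenly, with 6 higher, 6 lower and 2 not past of 14 in each comparison against control. Scd1, a stearoyl-CoA desaturase, had group means of 10.64 ± 0.027 in Pax7 arrays, 8.76 ± 0.115 in Pax3 arrays and 7.20 ± 0.090 in control arrays. It was 10.9-fold higher in Pax7 arrays and 2.95-fold higher in Pax3 arrays (limma adjusted p = 1.48e-11 and 8.2e-09). The desaturase Fads1 rose as well (0.69 and 0.71 in Pax7 and Pax3 arrays), whereas the elongase Elovl6 (-1.56 and -0.95) and the acyltransferase Gpam (-0.69 and -0.65) fell.

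Genes of sterol efflux and of the sterol sensor LXR gave 2 higher, 3 lower and 6 not past of 11 in each comparison against control, shares near those of all genes (21.6% and 21.5% with Pax7, 19.8% and 19.7% with Pax3). Mylip, an LXR target that marks lipoprotein receptors for degradation, was 7.49 ± 0.066 in Pax7 arrays and 7.47 ± 0.049 in Pax3 arrays, against 8.96 ± 0.070 in control arrays. Its change was -1.46 ± 0.053 in Pax7 arrays and -1.48 ± 0.053 in Pax3 arrays. The sterol hydroxylase Cyp27a1 rose by 0.59 in Pax7 arrays and 1.46 in Pax3 arrays, the transporter Abca7 rose by 0.78 and 0.54, and the dim hydroxylase Ch25h changed by -0.38 in both.

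Uptake, storage and traffic genes gave 8 higher, 1 lower and 5 not past of 14 in Pax7 arrays, against 21.6% higher and 21.5% lower of all genes. In Pax3 arrays 7 were higher, 0 lower and 7 not past (8 higher and 1 lower at an unadjusted p under 0.05 by limma), against 19.8% higher and 19.7% lower of all genes. Their median log2 fold change was 0.45 in Pax7 arrays and 0.29 in Pax3 arrays, against 0.03 and 0.02 over all genes. The carrier Stard5 was 2.52-fold higher in Pax7 arrays and 2.97-fold higher in Pax3 arrays, and the receptor Vldlr 2.41-fold and 2.77-fold. Nceh1, a cholesterol ester hydrolase, was 2.43-fold and 1.95-fold higher, and the receptor Lrp8 2.35-fold and 1.39-fold (limma adjusted p of at most 9.14e-05 for these 4 genes). In the same arrays 18 measured enzymes of synthesis gave 14 lower and 3 higher with Pax7 and 13 lower and 3 higher with Pax3.

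**Figure D5:**
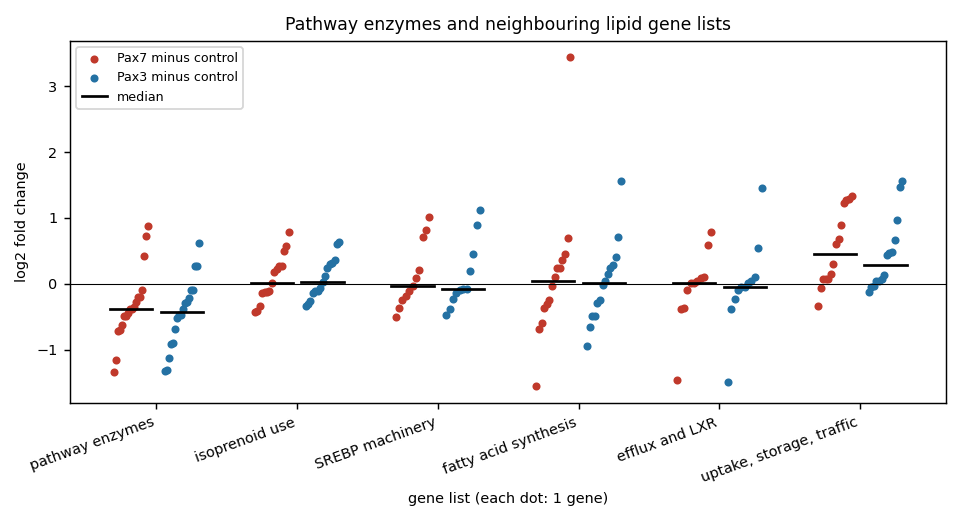
Log2 fold change of each gene (dots) in Pax7 arrays (red) and Pax3 arrays (blue) against control arrays, for the 18 measured pathway enzymes and 5 lists of neighbouring lipid genes; black lines are medians. The enzymes' medians are -0.39 and -0.43, those of uptake, storage and traffic genes 0.45 and 0.29, and the other medians lie near 0.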

How the data were processed

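Total RNA was hybridised to Affymetrix arrays, and the authors deposited log2 intensities made with RMA in R 2.10.0, per the submitters' processing notes. For filters and the genome build, the sources used here name none. Of 25668 probe sets, the platform annotation gave 20777 exactly 1 symbol, 232 several and 4659 none. For 19661 genes the brightest 1-symbol probe set was used, and each of the 26 measured members had 1 such probe set. Srebf2 also had 1 probe set with several symbols, which was not used. In limma 3.58.1 (R 4.3.3), lmFit and eBayes estimated group means from the 9 arrays together (residual df 6, prior df 4.37), and p-values were adjusted by Benjamini-Hochberg over all genes. Errors of means are SDs and those of fold changes are moderated SEs. The step was tested on simulated data. The members, the lists and the tests were chosen with earlier results of these data known. Members were named in full. From each other lipid list, up to 4 genes past the threshold with the largest change in either comparison against control were named. Alternatives covered the prior, the arrays fitted, a replicate block, dim genes, scaling, probe sets, single arrays left out and a minimum fold change. Promoter sequences are RefSeq's (GRCm38.p6).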

Additional observations from a re-analysis of the deposited data

How the results depend on the processing

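Counts of members past the threshold moved by over 1.5 times under 1 alternative only, the minimum fold change of 1.2: 11 lower in Pax7 arrays against control (18 without the minimum), 1 higher in Pax3 arrays against control (4 without), and 1 higher in Pax7 than in Pax3 arrays (8 without). With single arrays left out, members lower ranged from 16 to 19 (Pax7 against control) and 16 to 18 (Pax3 against control), members higher were 4 throughout and 3 to 5, and 6 to 10 were higher in Pax7 than in Pax3 arrays with 0 lower. The members' medians then ranged from -0.38 to -0.33, -0.43 to -0.39, and 0.06 to 0.09. The replicate block left the counts at 18 lower and 4 higher, 17 lower and 4 higher, and 8 higher, and changed no member's call. The numbers share no stated source: deviations of same-numbered arrays correlated at -0.026 to 0.225, with a value under 0.1 in every comparison, and the closest array bore the same number for 0, 5 and 3 of 6 arrays (Pax7 against control, Pax3 against control, Pax7 against Pax3). Among members' values, sign changes were limited to those that passed in no setting. Npc1l1 (Pax3 against control) was -0.00325 with arrays centred on their medians, -0.0053 after a repeated quantile normalisation, and -0.058 to 0.0569 with single arrays left out. Between Pax7 and Pax3 arrays, Sc5d was 0.0129 after the repeated normalisation, and with arrays left out the log2 differences ranged from -0.0329 to 0.0322 for Sc5d, -0.0335 to 0.024 for Mvk, -0.021 to 0.111 for Pmvk, -0.0795 to 0.0633 for Lss, -0.179 to 0.0587 for Cyp51, -0.0173 to 0.0874 for Hsd17b7 and -0.0745 to 0.0404 for Npc1l1. The number of arrays limits the precision, and dim probe sets such as Npc1l1 can hide a change.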
